A study of Arabidopsis thaliana with 6 samples.

Results

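The deposited expression table of wild-type and epic2 Arabidopsis thaliana plants held 26765 rows, each of them 1 interval of the genome, and in 412 of them (1.54%) the gene column held only a hyphen. These 412 rows without a gene name were all taken, with no selection here on level or change, and each was placed by its interval. The authors tested 97.6% of them, against 70.3% of the rows with a name. Their lowest mean was 0.133 FPKM, against 0 for rows with a name. Whether a row without a name was listed only where reads were found was not tested. Levels and densities of the 2 sets may therefore not compare like with like. Where a pair of values follows without labels, the first is silex and the other epic2. RNA had been prepared from aerial parts of 17-day-old seedlings in the Col-0 background, kept at 24 degrees with 16 h of light a day. There were 6 samples, 3 wild type and 3 epic2, read as single reads of 50 bases. The sources used here name neither the gene altered in epic2 nor whether plants of the same genotype were grown apart. The table gives 1 FPKM value (a read count divided by transcript length and by sequencing depth) for each genotype, with the 3 samples pooled by the authors. Its columns are named silex and epic2, and silex was taken as the wild type because no other group was sampled. The table gives no read counts, so the depth behind each value is unknown. The 6 light-harvesting genes checked as leaf markers lay between 4238 and 7831 FPKM, and the root iron transporter IRT1 was listed at 0 in silex and 0.0309 FPKM in epic2. In bulk tissue, fewer cells of a type and less RNA per cell cannot be told apart.

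Intervals of this kind hold several sorts of transcript. Pseudogenes are copies of genes that no longer encode a full protein, and some are still transcribed. Long non-coding RNAs make no protein, primary miRNA transcripts are cut into short RNAs that silence target genes, and snoRNAs guide the chemical modification of other RNAs. Sadhu elements are non-coding retrotransposons of Arabidopsis, and nuclear chromosomes also carry inserted pieces of the chloroplast and mitochondrial genomes. Plant pericentromeres, the regions around the centromeres, are rich in repeats and poor in genes.

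The sequences that follow are from the TAIR10.1 RefSeq genome, whose nuclear coordinates are those of TAIR10. They come first from the rows with the largest rises and falls in epic2. Each is 150 bases at or near the 5′ end of the part of an annotated feature that lies within the row, on that feature's strand. It need not be the 5′ end of the feature itself. Windows that held untranslated bases of an mRNA were moved inwards. Capitals mark bases within a 50-base word that occurs more than once in the genome.
AT1G67105 (rose), chr1:25057508-25057657, + strand: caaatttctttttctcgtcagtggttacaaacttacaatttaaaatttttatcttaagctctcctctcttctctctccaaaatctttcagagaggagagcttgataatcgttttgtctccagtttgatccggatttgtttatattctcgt
AT2G05705 (rose), chr2:5022050-5022199, - strand: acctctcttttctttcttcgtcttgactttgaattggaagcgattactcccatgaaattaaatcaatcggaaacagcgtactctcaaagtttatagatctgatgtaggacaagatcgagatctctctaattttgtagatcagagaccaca
AT3G06045 (rose), chr3:11925101-11925250, - strand: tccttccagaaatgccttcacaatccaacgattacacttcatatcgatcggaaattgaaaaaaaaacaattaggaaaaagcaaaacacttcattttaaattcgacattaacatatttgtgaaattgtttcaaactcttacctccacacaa
AT3G56275 (rose), chr3:20872799-20872948, + strand: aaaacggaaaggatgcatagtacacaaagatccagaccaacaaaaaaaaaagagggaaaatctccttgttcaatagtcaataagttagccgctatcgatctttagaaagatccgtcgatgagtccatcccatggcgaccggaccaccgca
AT2G23673 (rose), chr2:10064147-10064296, + strand: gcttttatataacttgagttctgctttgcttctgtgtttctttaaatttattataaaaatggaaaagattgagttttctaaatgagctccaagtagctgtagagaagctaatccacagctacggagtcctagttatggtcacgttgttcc
AT4G06748 (fell), chr4:4077999-4078148, + strand: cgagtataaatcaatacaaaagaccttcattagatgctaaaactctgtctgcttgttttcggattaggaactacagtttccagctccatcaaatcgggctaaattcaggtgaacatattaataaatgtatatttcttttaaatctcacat
AT3G15310 (fell), chr3:5153478-5153627, - strand: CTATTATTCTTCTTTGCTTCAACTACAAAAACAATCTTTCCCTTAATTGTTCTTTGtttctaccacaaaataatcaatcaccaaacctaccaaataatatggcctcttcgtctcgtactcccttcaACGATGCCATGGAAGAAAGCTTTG
AT5G35777 (fell), chr5:13949228-13949377, + strand: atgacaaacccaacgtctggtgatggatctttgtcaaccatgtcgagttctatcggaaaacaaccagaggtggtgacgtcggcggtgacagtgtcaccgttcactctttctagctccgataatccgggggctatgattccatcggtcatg
AT1G35612 (fell), chr1:13145643-13145792, + strand: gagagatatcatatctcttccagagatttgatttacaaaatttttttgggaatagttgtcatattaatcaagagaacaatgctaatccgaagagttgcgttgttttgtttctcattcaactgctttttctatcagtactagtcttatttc
AT3G05845 (fell), chr3:11470571-11470720, + strand: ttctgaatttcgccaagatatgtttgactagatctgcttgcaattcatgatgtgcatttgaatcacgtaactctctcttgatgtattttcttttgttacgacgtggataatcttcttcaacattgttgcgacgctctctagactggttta
Of these 10 windows, only that of AT3G15310 held repeated 50-base words.

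The next 4 sequences show the kinds of repeated or copied sequence met among the rows, with capitals as above. The first is the whole interval of the row with the highest level, the second the whole interval of the row over AT1G07017, the third a window of SADHU5-1 and the fourth a tRNA-Pro gene under 1 row.
Highest row, chr2:8157737-8157795, + strand: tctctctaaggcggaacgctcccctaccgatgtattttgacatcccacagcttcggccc
AT1G07017 row, chr1:14196280-14196459, + strand: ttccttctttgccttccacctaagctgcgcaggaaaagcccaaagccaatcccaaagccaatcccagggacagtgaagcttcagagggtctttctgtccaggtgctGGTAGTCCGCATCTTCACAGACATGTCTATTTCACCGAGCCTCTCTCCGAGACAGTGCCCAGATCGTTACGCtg
SADHU5-1, chr4:660906-661055, + strand: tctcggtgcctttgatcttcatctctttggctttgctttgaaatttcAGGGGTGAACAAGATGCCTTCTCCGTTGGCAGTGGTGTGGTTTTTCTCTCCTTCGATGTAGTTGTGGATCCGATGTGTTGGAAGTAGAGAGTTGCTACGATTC
tRNA-Pro gene AT1G28930, chr1:10106090-10106161, + strand: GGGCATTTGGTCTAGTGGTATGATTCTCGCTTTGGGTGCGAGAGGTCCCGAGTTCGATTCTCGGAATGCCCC
Every base of the tRNA gene is in a repeated word, while the interval of the highest row has none.

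The next 5 sequences are mature miRNAs annotated within the 5 called rows that hold a miRNA gene, of which 4 fell (capitals mark the seed, bases 2 to 8, and letters are those of the genome).
miR414, chr1:25137519-25137539, - strand: tCATCTTCatcatcatcgtca
miR169m, chr3:9878318-9878338, - strand: tAGCCAAGgatgacttgcctg
miR822-5p, chr5:897287-897307, - strand: tGCGGGAAgcatttgcacatg
miR850, chr4:7845756-7845777, + strand: tAAGATCCggactacaacaaag
miR825, chr2:11159774-11159794, + strand: tTCTCAAGaaggtgcatgaac
The 5 seeds differ from each other. The rows measure the long transcripts, and mature miRNAs were not measured.

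The rows overlapped the RefSeq annotation in different ways. A single annotated feature lay under 272 rows, 115 rows covered more than 1 feature (at most 9), and 25 covered none. No row had both ends equal to those of a feature. By a fixed order of classes, 182 rows were over a pseudogene, 144 over other non-coding RNA, 22 over a protein-coding gene, 17 over a miRNA gene, 11 over a snoRNA, 7 over a transposon-related locus and 4 over a tRNA. The transposon-related class was taken only where a feature's note, product or symbol named a transposon, a retroelement or a family such as Sadhu. Other loci derived from transposons may thus be counted as pseudogenes. One such row lay over AT2G11140 and AT2G11035, the latter annotated as a reverse transcriptase zinc-binding protein. Only 12 rows overlapped a row with a gene name, and the median distance to the nearest such row was 1079 bases. The rows were short. Their median length was 1021 bases (quartiles 552 and 1953, range 59 to 13474), against 2166 bases for rows with a gene name. Their median GC content was 37.8%, against 39.3%.

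Rows without a gene name lay more densely around the centromeres than on the arms, the opposite of rows with a name. The 28.0 Mb counted as pericentromere (chromosome 1 from 12 to 18, chromosome 2 from 1 to 7, chromosome 3 from 11 to 17, chromosome 4 from 2 to 6 and chromosome 5 from 9 to 15 Mb) held 141 of the 412 rows, or 34.2%, but 10.1% of the rows with a name. That was 5.04 rows per Mb, against 2.97 per Mb on the arms, where the other 271 lay. For rows with a name the densities were 94.8 per Mb in the pericentromeres and 260 per Mb on the arms. Unnamed rows made up 5.05% of all rows of the pericentromeres and 1.13% of those of the arms. The pericentromere of chromosome 2 was the densest, at 9 rows per Mb, followed by that of chromosome 3 at 5.33. Of the 54 pericentromere rows of chromosome 2, 19 lie in 1 insertion of mitochondrial DNA, and without rows that align to an organelle genome these 2 densities were 5.67 and 4.50 per Mb. The arms ranged from 2.00 per Mb on chromosome 5 to 3.84 on chromosome 3. By whole chromosome there were 104, 96, 99, 54 and 59 rows on chromosomes 1 to 5. Without the 27 rows that align to an organelle genome, a setting chosen after seeing the data, the densities were 4.11 per Mb in the pericentromeres and 2.96 per Mb on the arms.

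**Figure D1:**
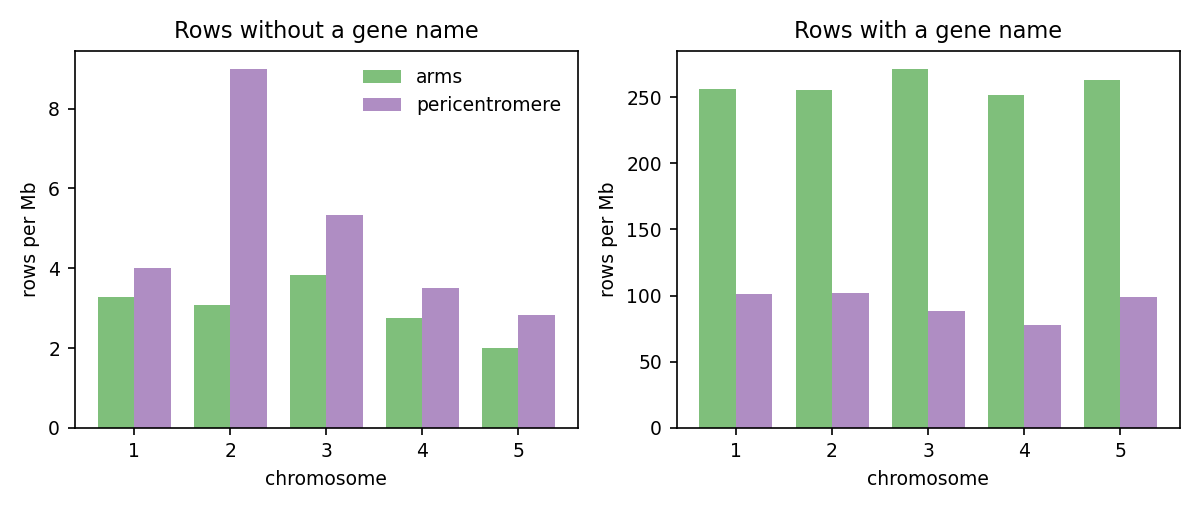
Rows per Mb of each chromosome (x axis) on the arms (green) and in the pericentromere (purple), without a gene name on the left and with one on the right, on separate y axes that start at 0. Unnamed rows reach 9 per Mb in the pericentromere of chromosome 2 (5.67 without rows that align to an organelle genome), and on every chromosome the pericentromere has the higher density of unnamed rows and the lower density of named rows.

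The rows had low levels. In silex their median was 2.51 FPKM (quartiles 1.38 and 5.74) and in epic2 2.46 FPKM (1.23 and 5.59). Rows with a gene name that the authors tested had medians of 11.27 and 11.05 FPKM. All rows with a gene name, tested or not, had medians of 4.99 and 4.78 FPKM. A mean level under 5 FPKM was found for 70.6% of the unnamed rows, 29.4% of the tested named rows and 50.2% of all named rows. Unnamed rows in the pericentromeres had medians of 2.51 (silex) and 2.26 FPKM (epic2), and those on the arms 2.51 and 2.61. Named rows of the pericentromeres, many of them silent, had medians of 0.300 and 0.271 FPKM. The authors tested 49.1% of these named rows, against 96.5% of the unnamed rows there. At the other end, 10 unnamed rows had a mean of 100 FPKM or more. The levels followed length unevenly. The 14 rows under 250 bases had medians of 10.7 FPKM in both groups, the 71 rows from 250 to under 500 bases 2.00 and 1.70 FPKM, and the 76 rows from 2000 to under 5000 bases 4.09 and 4.21 FPKM. FPKM divides reads by transcript length, so levels of very short rows rest on few bases.

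The highest row was one of 59 bases on an arm of chromosome 2, over no annotated feature, with 22675 FPKM in the silex column and 29223 FPKM in the epic2 column. Of its interval, 52 bases align to the chloroplast 23S rRNA gene rrn23S with 1 mismatch. The authors' deposited table gives this row q = 0.493, so no change was called. The row over the long non-coding RNA AT1G07017, 180 bases in the pericentromere of chromosome 1, rose from 958 FPKM (silex) to 1438 FPKM (epic2). Its log2 fold change in the authors' deposited table was 0.59 (q = 0.000104). That table gives no standard error, and the implied SE given with fold changes here, 0.13 for this row, is the fold change divided by the authors' test statistic. It too resembles rrn23S, with 97.8% of the row aligned at 90.9% identity, and 17.6% of its 50-base words occur in the chloroplast genome. The part of chloroplast reads in its level was not tested. A row of 87 bases over the pseudogene AT3G32990 had 327 and 268 FPKM and aligns over its whole length to atpH, a subunit gene of the chloroplast ATP synthase, with 3 mismatches. It begins a run of 5 rows within a few kilobases of chromosome 3 that align to consecutive chloroplast genes. The 2 rows over AT3G33000 (atpI) had 6.56 and 12.5 FPKM in silex and 4.90 and 14.8 in epic2. The row over AT3G33002 (rps2) had 1.28 and 1.11 FPKM, and that over AT3G33004 (rpoC2) 0.518 and 0.998 FPKM. The first row of the run was far above the others, but its log2 fold change had an implied SE of 0.83. The median implied SE of unnamed rows under 1 FPKM was 0.82. None of the 5 rows was called. In all, 9 rows aligned to the chloroplast genome over at least 50% of their length at 90% identity or more, 8 of them in pericentromeres.

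**Figure D2:**
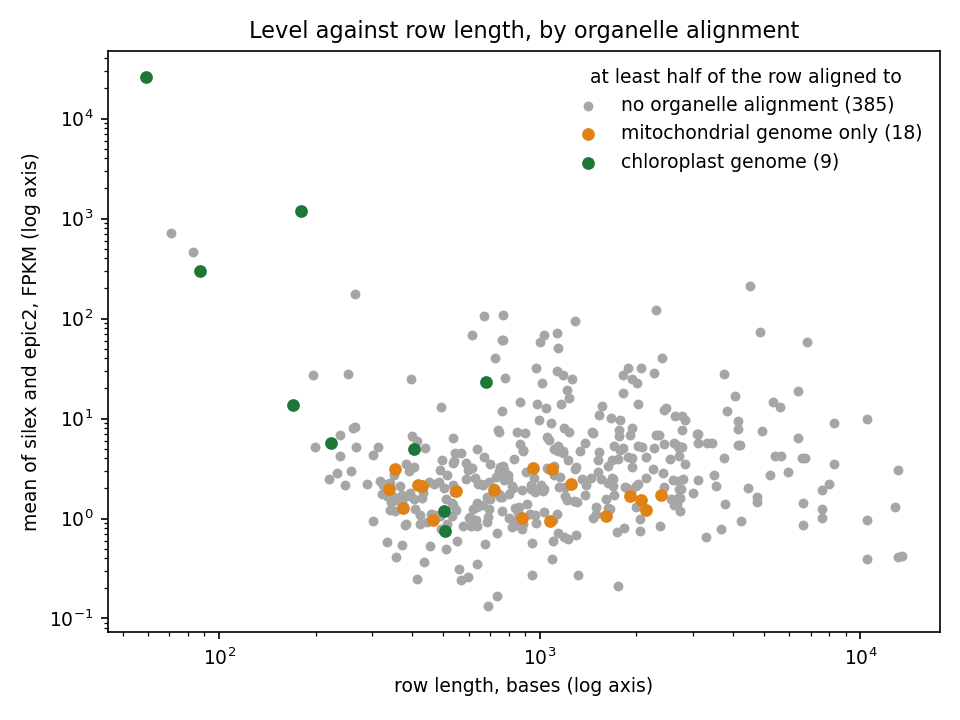
Mean FPKM of silex and epic2 (y, log axis) against row length in bases (x, log axis) for the 412 rows without a gene name, each point 1 row, with rows that align to the chloroplast genome in green (9) and to the mitochondrial genome only in orange (18). The 4 rows under 100 bases have means from 298 to 25949 FPKM, and the orange rows lie mostly near 2 FPKM.

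Other high rows had no organelle match. A row of 71 bases on chromosome 1, over no feature, had 877 and 543 FPKM (implied SE 0.98, q = 0.687 in the authors' deposited table). A near-copy of it at 91.8% identity lies on chromosome 4, where the table has no row. Another, at 90.4% identity, lies within AT3G47965 on chromosome 3, whose own row had 23.9 and 19.0 FPKM. The row of 83 bases over the pseudogene AT3G29788 had 518 and 403 FPKM (implied SE 0.76) and was not called. Its near-copy is in AT3G57400 on the same chromosome, whose row fell from 51.2 to 42.5 FPKM (q = 0.0178 in the authors' deposited table). The row over the pseudogene AT5G34851 had 143 and 211 FPKM (q = 0.176 in the authors' deposited table), and the row over GUT15, a non-coding RNA, had 116 and 129 FPKM. Both were higher in epic2 without passing the test. The row over AT5G34851 has a near-copy of 265 bases at 97.7% identity on chromosome 5, where the table has no row. Another, at 92.2% identity, is in an unnamed row of chromosome 3 with 14.9 and 21.4 FPKM that was not called. Of the 50-base words of the AT5G34851 row, 32.4% also occur where the table has no row. A further 14.8% occur in that row of chromosome 3, and reads of shared words cannot be told apart.

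On chromosome 2, 19 rows lay between bases 3276527 and 3499610, within the insertion of mitochondrial DNA known there. Between 85.6% and 100% of the 50-base words of each occur in the mitochondrial genome. They include stretches like nad1, nad2, nad4, nad5 and nad7, genes for subunits of the respiratory NADH dehydrogenase. Their medians were 2.00 (silex) and 1.60 FPKM (epic2). Of the 19, 5 were higher and 14 lower in epic2, and none passed the test, beside 18.3% of all tested rows called. Over all 402 tested unnamed rows, 186 were higher and 216 lower at any p. The 19 rows are parts of 1 insertion, so they are not independent of each other. The highest, over AT2G07688, had 22.8 and 23.9 FPKM and also aligns to psbA, the chloroplast gene of a photosystem II core protein. Reads of the organelle and of the nuclear copy cannot be told apart in these rows.

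The comparison of epic2 with silex addressed which of these transcripts differ between mutant and wild-type plants. The authors tested 402 of the 412 rows. A row is called here where the authors' deposited table gives a q-value at or under 0.05, and 35 rows (8.71%) were, 17 higher and 18 lower in epic2. Over all tested rows 18.3% were called, 9.51% higher and 8.8% lower, and among rows with a gene name 18.5%. The share of unnamed rows was thus under the background in both directions. The share was lower in every range of level, on few calls in each. Under 1 FPKM it was 3.77% of the tested unnamed rows (2 of 53) against 8.63% of all tested rows. From 1 to 2 FPKM it was 4.95% (5 of 101) against 10.5%, and from 2 to 5 FPKM 10.9% (14 of 129) against 14%. From 5 to 10 FPKM the shares were close, at 10.2% (6 of 59) against 12%. They were 9.76% (4 of 41) against 19.1% from 10 to 50 FPKM, and 21.1% (4 of 19) against 37.2% at 50 FPKM or more. The standard error implied by the authors' test statistic was larger for unnamed rows, with a median of 0.43 on the log2 scale against 0.16 for named rows, and from 2 to 5 FPKM still 0.44 against 0.26. The part of this in the number of calls was not tested. The median change on the log2(FPKM + 1) scale was -0.026, beside 0.012 over all tested rows, with 186 rows higher and 216 lower at any p. On the arms 25 of 266 tested rows were called (9.4%, background 18.5%), 14 higher and 11 lower. In the pericentromeres 10 of 136 were called (7.35%, background 15.5%), 3 higher and 7 lower. The difference between the regions was not tested.

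**Figure D3:**
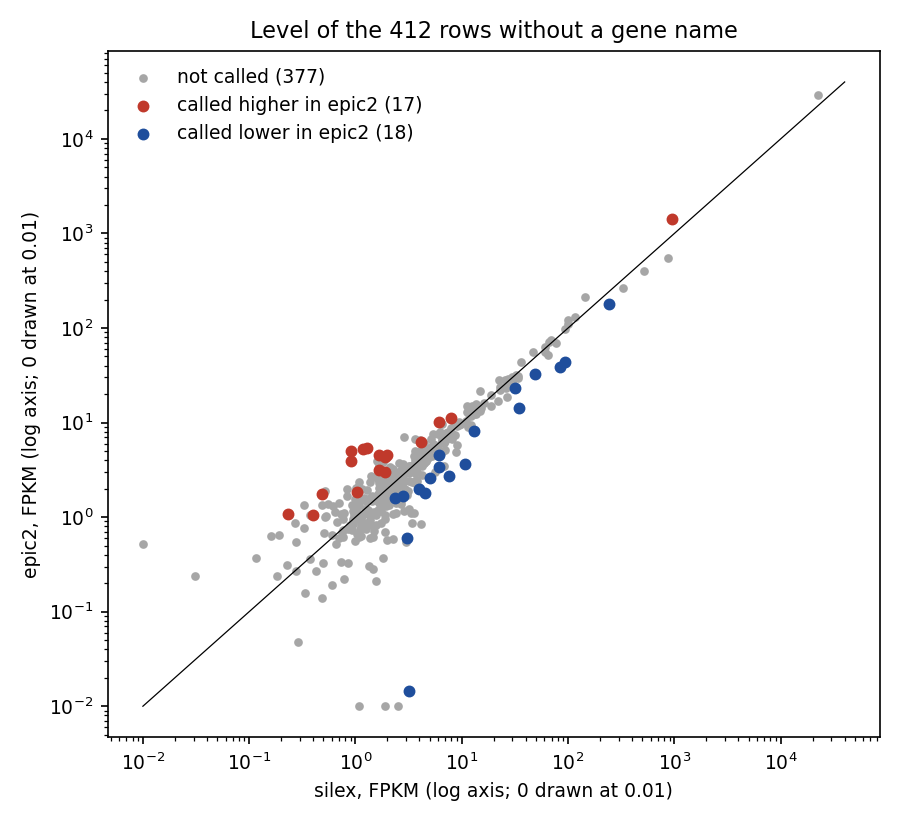
FPKM in epic2 (y, log axis) against silex (x, log axis) of the 412 rows without a gene name, each point 1 row and values of 0 drawn at 0.01, with the diagonal marking equal levels. The 17 called higher (red) and 18 called lower (blue) lie on either side of the diagonal among 377 rows that were not called or not tested (grey).

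The 5 largest rises on the log2(FPKM + 1) scale were in non-coding RNAs and pseudogenes of low level in silex. The non-coding RNA AT1G67105 on chromosome 1 went from 0.906 FPKM to 5.03 FPKM (epic2), a log2 fold change of 2.47 in the authors' deposited table (implied SE 0.47, q = 2.74e-06). The long non-coding RNA AT2G05705 in the pericentromere of chromosome 2 went from 1.18 to 5.23 FPKM (log2 fold change 2.15, implied SE 0.48, q = 0.000113 in the authors' deposited table). The row over the non-coding RNA AT3G06045 and AT3G30305 in the pericentromere of chromosome 3 went from 1.28 to 5.40 FPKM (2.08, implied SE 0.62, q = 0.00554 in the authors' deposited table). These 3 were near or under 1 FPKM in silex and near 5 FPKM in epic2. The pseudogene AT3G56275 went from 0.910 to 3.96 FPKM (log2 fold change 2.12, implied SE 0.53, q = 0.000687 in the authors' deposited table). AT2G23673, annotated as a pseudogene of AT2G23680, a putative stress-responsive gene, went from 1.68 to 4.49 FPKM (1.42, implied SE 0.43, q = 0.00576 in the authors' deposited table). Its parent gene AT2G23680 next to it had 5.91 and 4.85 FPKM and was not called (q = 0.641 in the authors' deposited table).

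Smaller rises were also mostly in pseudogenes. The row over no feature at chr4:1373147-1373900 rose from 1.98 to 4.50 FPKM (q = 0.00561 in the authors' deposited table). AT3G12981, a pseudogene of an F-box gene, a class of proteins that mark others for breakdown, rose from 0.479 to 1.76 FPKM, and AT3G28915 rose from 0.230 to 1.07 FPKM. AT2G46730, a pseudogene like galacturonosyltransferases, enzymes of pectin synthesis, rose from 1.65 to 3.14 FPKM (q = 0.0480 in the authors' deposited table, Benjamini-Hochberg adjusted p = 0.0636 over all tested rows). AT1G09486, a pseudogene of a translation protein, rose from 1.89 to 4.37 FPKM (q = 0.0434 in the authors' deposited table, Benjamini-Hochberg adjusted p = 0.0575). The last 2 calls were thus lost under that adjustment. The row over AT1G09486 shares 48.5% of its 50-base words with another unnamed row of chromosome 1 that had 1.68 and 3.56 FPKM and was not called. It also shares 18 words (1.77%) with each of 2 far higher named rows, both called higher. These were AT1G57660, with 238 and 279 FPKM, and AT1G57860, with 157 and 186 FPKM (q = 0.0354 and 0.0236 in the authors' deposited table). Reads of the shared words cannot be told apart. The pseudogene AT3G06433, of the MtN3 nodulin family of sugar transporters, had called rises in both of its rows, of 6.12 to 10.02 FPKM in the first and 4.11 to 6.23 FPKM in the other. In the other row 46.5% of the 50-base words also occur where the table has no row, and the pair shares 27 words. That row also shares 55 words (2.71%) with AT1G24996, which had 296 and 254 FPKM and was not called. A further named row, AT1G24822, shares 55 words with it and had 0.00592 and 0 FPKM.

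The largest fall was in AT4G06748, annotated as a pseudogene of TSK-associating protein 1, in the pericentromere of chromosome 4. It went from 3.18 FPKM to 0.0146 FPKM (epic2). The log2 fold change of -7.77 in the authors' deposited table had the widest error of the called rows (implied SE 2.52, q = 0.0120), and its level in epic2 was close to 0. The pseudogene AT3G15310 on chromosome 3 fell from 10.8 to 3.65 FPKM (log2 fold change -1.57 and q listed as 0 in the authors' deposited table, implied SE 0.19), and 33.4% of its 50-base words also occur where the table has no row. AT5G35777 in the pericentromere of chromosome 5 fell from 3.06 to 0.607 FPKM (-2.33, implied SE 0.35, q = 7.13e-10 in the authors' deposited table). AT1G35612, a pseudogene of Ulp1 proteases, which cut SUMO from proteins, fell in the pericentromere of chromosome 1 from 34.8 to 14.3 FPKM (-1.28, implied SE 0.21, q = 2.38e-08 in the authors' deposited table). The row over the non-coding RNA AT3G05845 and AT3G29631 in the pericentromere of chromosome 3 fell from 7.50 to 2.75 FPKM (-1.45, implied SE 0.46, q = 0.0103 in the authors' deposited table). Of these 5, 4 lay in pericentromeres. Of all 18 called falls only 7 did, and the pericentromeres held 34.2% of all unnamed rows. A concentration of the largest falls there was not tested.

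Among high rows, 2 on the arms of chromosome 1 fell by a similar factor. The MIR414 row went from 83.7 to 39.1 FPKM (log2 fold change -1.10, implied SE 0.13, q = 2.02e-14 in the authors' deposited table). The non-coding RNA AT1G10682 went from 92.9 to 43.6 FPKM (-1.09 and q listed as 0 in the authors' deposited table, implied SE 0.12). Of the 10 largest falls, the row over AT3G01295 and AT3G00170 went from 4.52 to 1.79 FPKM (q = 0.00416 in the authors' deposited table). Other called falls were smaller. AOP2, a glucosinolate gene that is a null allele in this background, went from 48.8 to 32.7 FPKM (q = 0.0217 in the authors' deposited table), and the non-coding RNA AT3G05945 from 31.4 to 23.4 FPKM. Of the 35 called rows, 12 changed at least 2-fold on the log2(FPKM + 1) scale, 5 higher and 7 lower. All 50-base words were unique in 18 of the 35 (51.4%, beside 56.1% of all unnamed rows), and the lowest unique share was 39.8%.

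**Figure D4:**
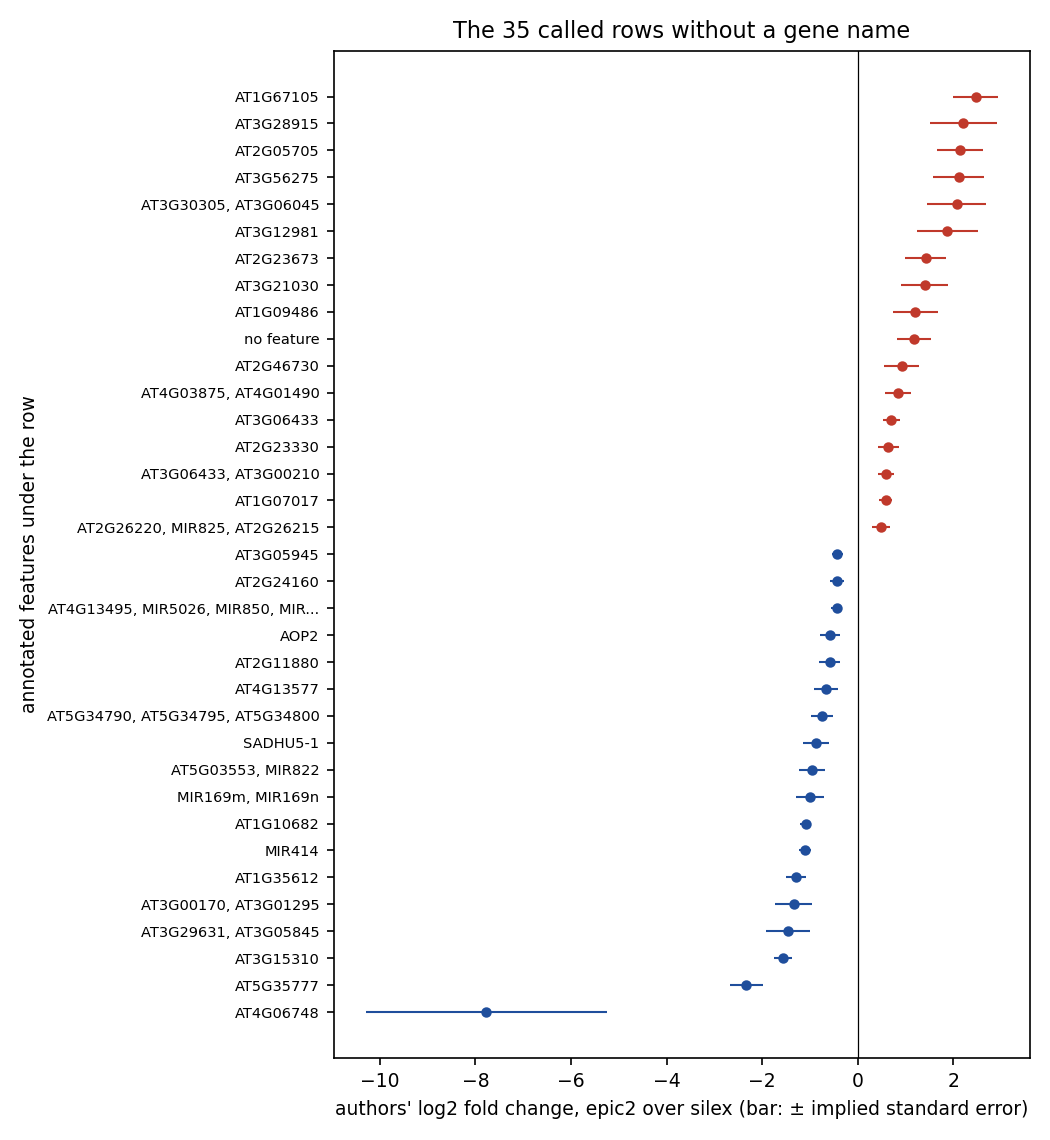
The authors' log2 fold change of epic2 over silex (x) for the 35 called rows, labelled by the annotated features under each row (y), with bars of 1 implied standard error either side. The values run from -7.77 for AT4G06748 to 2.47 for AT1G67105, and the bar of AT4G06748 is the widest.

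Pseudogenes were the largest class, with 20 of 176 tested rows called (11.4%, beside 18.3% of all tested rows), 12 higher and 8 lower. The 12 rises were all among the 96 tested pseudogene rows of the arms, where 3 fell (15.6% called, beside 18.5% of all tested rows of the arms). Among the 80 of the pericentromeres 5 fell and none rose (6.25%, beside 15.5% of all tested rows there). Named rows were called in both directions in both regions. Of 17211 tested on the arms, 1672 were higher and 1542 lower, and of 1303 in the pericentromeres 109 were higher and 104 lower. The split of the pseudogene rows by region was noticed in the data and was not tested. Falls in the pericentromeres included AT2G11880, from 2.35 to 1.57 FPKM, and the row over AT5G34790, AT5G34795 and AT5G34800, from 2.79 to 1.66 FPKM. On the arms AT2G24160, a pseudogene of a receptor-like protein, fell from 6.07 to 4.50 FPKM. Non-coding RNAs outside the named classes had 8 of 141 tested rows called (5.67%), 4 in each direction. Their highest row after that of AT1G07017 was AT3G12965, with 98.8 and 120.1 FPKM, which was not called.

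**Figure D5:**
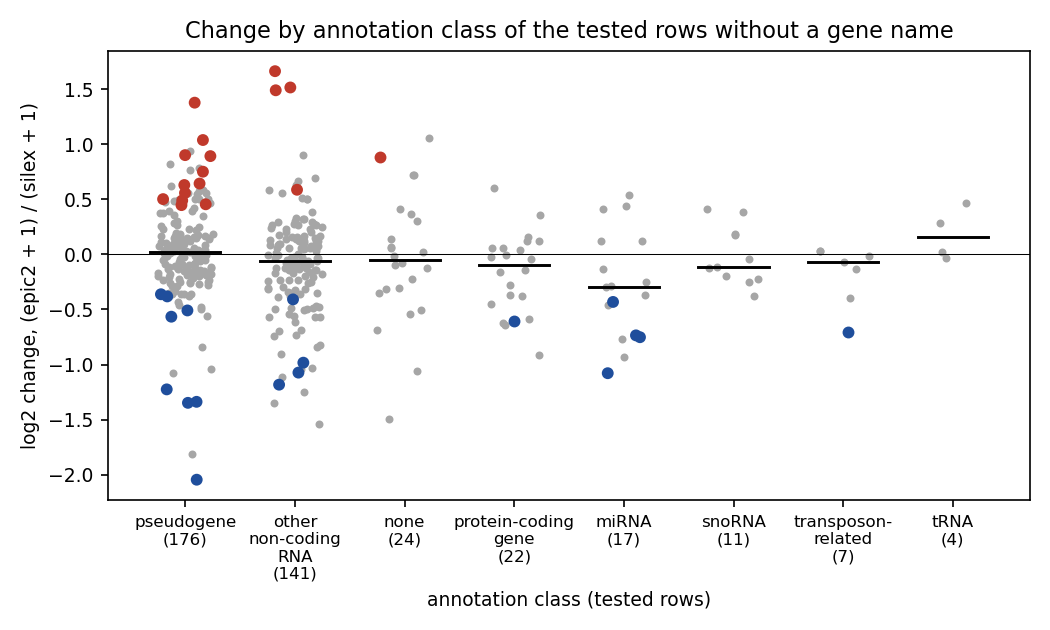
Change on the log2(FPKM + 1) scale (y) of the 402 tested rows by annotation class (x, number of rows in brackets), each point 1 row, spread sideways at random, with rows called higher in red, called lower in blue and the class median as a black line. The 17 rows of the miRNA class have a median of -0.29, and 4 of them are called, all lower (23.5%, beside 18.3% of all tested rows called in either direction).

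The 17 rows of the miRNA class all lay on chromosome arms. Of these, 4 fell and none rose, 23.5% of the class, beside 18.3% of all tested rows called and 8.8% called lower. A class of 17 rows with 4 calls lies near that background, and its median change was -0.29, beside 0.012 over all tested rows. Lower values in epic2 were found in 12 of the 17, most of them short of the test. The row that holds MIR5026, MIR850 and MIR863 together with the non-coding RNA AT4G13495 was the highest, and it fell from 245 to 181 FPKM (log2 fold change -0.43, implied SE 0.11, q = 0.00123 in the authors' deposited table). The row over MIR822, whose miRNA acts on genes of DC1-domain proteins, fell from 5.04 to 2.59 FPKM (q = 0.00302 in the authors' deposited table). The row over MIR169m and MIR169n, of the family that silences NF-YA transcription factors, fell from 3.99 to 2.00 FPKM (q = 0.00524 in the authors' deposited table). The nearby row over MIR169k and MIR169l had 2.75 FPKM in silex and 1.74 in epic2, just short of the call (q = 0.0503 in the authors' deposited table).

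Precursors of other known families were not called. MIR159b, whose miRNA silences GAMYB-like factors, had 5.37 and 7.65 FPKM (q = 0.0553 in the authors' deposited table). MIR156a had 1.34 and 1.55 FPKM, MIR156c 1.63 and 2.51 FPKM, MIR157a 1.83 and 3.09 FPKM and MIR157c 22.1 and 16.9 FPKM. These 4 belong to the family that silences SPL factors, and 3 of them were higher in epic2 without passing the test. MIR166a, whose miRNA acts on HD-ZIP III genes, had 1.38 and 0.939 FPKM, MIR167a, which acts on ARF genes, 1.65 and 1.42 FPKM, and MIR171c, which acts on GRAS genes, 1.45 and 0.284 FPKM. Counting rows in which a miRNA gene lies beside a feature of another class, 25 rows held a miRNA gene and 5 were called (20%, near the 18.3% of all tested rows). Some of the 25 share an interval, as 3 rows lie over MIR8168. The one that rose, over MIR825 and the pseudogene AT2G26220, went from 7.94 to 11.2 FPKM (q = 0.0389 in the authors' deposited table), a call that Benjamini-Hochberg adjustment over all tested rows did not keep (adjusted p = 0.0517).

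Of the 6 Sadhu rows, 1 fell and none rose (16.7%, near the 18.3% of all tested rows called). SADHU5-1 went from 6.11 to 3.35 FPKM (log2 fold change -0.87, implied SE 0.27, q = 0.00816 in the authors' deposited table), and only 39.8% of its 50-base words are unique in the genome. SADHU1-1 in the pericentromere of chromosome 2 was the highest, at 94.5 and 96.6 FPKM. SADHU2-1 had 15.1 and 14.4 FPKM, SADHU1-2 14.2 and 14.1 FPKM, SADHU4-1 7.03 and 5.12 FPKM and SADHU1-3 3.47 and 3.07 FPKM. These 5 were near equal in both genotypes or lower in epic2 without passing the test.

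The 11 snoRNA rows and 4 tRNA rows had no call. The highest snoRNA row covered 6 annotated features on chromosome 3, among them AtsnoR64, and had 13.6 and 13.2 FPKM. The row over AtsnoR106 had 4.39 FPKM in silex and 6.03 in epic2. A row of chromosome 1 that includes tRNA-Pro genes, 1 of which is printed above, had 2.41 and 2.47 FPKM. Of the 22 rows over a protein-coding gene, 1 was called (4.55%, beside 18.3% of all tested rows), over AT4G13577, from 13.0 to 8.18 FPKM (q = 0.0414 in the authors' deposited table, Benjamini-Hochberg adjusted p = 0.0549 over all tested rows). That call was lost under the second adjustment. The row overlapping HEN2, an RNA helicase gene, had 6.47 and 6.44 FPKM.

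The nearest named rows on both sides of the 35 called rows were mostly not called. There were 68 such neighbours, of which 41 were tested and 6 were called (14.6%, beside 18.5% of all named rows tested). In 5 of these 6 the direction was that of the unnamed row. YCF37, a gene for a photosystem I assembly factor 265 bases from the row over AT2G23673, rose from 280 to 369 FPKM (q = 9.4e-05 in the authors' deposited table). AT4G03100, 381 bases from the called row over no feature, rose from 7.93 to 11.9 FPKM (q = 0.000209 in the authors' deposited table). Beside AT1G67105 neither nearest named row was tested, and beside AT2G05705 and AT4G06748 only 1 was, which was not called.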

How the data were processed

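Total RNA of 6 samples was made into RNA libraries with the TruSeq version 2 kit, per the labels' protocols. Per the submitters' processing notes, TopHat, Cufflinks and Cuffdiff were used with TAIR10; their versions, settings and model of spread are not stated there. The authors deposited 1 FPKM value per group, with replicates pooled, and per the file headers a log2 fold change, a test statistic (a score) and p-values and q-values. The authors' log2 fold change column is read as a score because it also holds placeholder values where a group is at 0. The standard error is the fold change divided by the statistic.

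The 412 rows were found by the hyphen in the gene column, and starts were raised by 1, since the file counts from 0 (6404 of 23562 named rows then start with their gene). Rows were placed by midpoint and matched to the TAIR10.1 RefSeq annotation, and by exact 50-base words on both strands and blastn to the organelle genomes. Where several feature classes lay under a row, 1 class was taken in a fixed order: transposon-related, pseudogene, tRNA, snoRNA, miRNA, other non-coding RNA, protein-coding. Changes per class use a pseudocount of 1 FPKM. Python 3.11.15 with pandas 2.3.3 and numpy 2.4.6 was used, and the word search and the adjustment of p-values were tested on simulated data. Rows described singly were the 10 largest rises and falls among called rows, the 8 highest, the 3 shortest and 3 longest, those at 0 in 1 group and at 1 FPKM or more in the other, up to 4 called rows of the pericentromeres and the 2 highest per class. Other rows and sequences were chosen after their values were seen, and the rows and lists were chosen with earlier results of these data known. The labels do not say that samples were grown apart, so a p-value here reflects no more than the spread of these 6 samples, which may be technical.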

Additional observations from a re-analysis of the deposited data

How the results depend on the processing

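The 35 calls became 22 at a q-value of 0.01, 6 with a Bonferroni adjustment over all tested rows and 12 with a change of at least 2-fold on the log2(FPKM + 1) scale. On the arms the 25 calls became 15, 4 and 6 under these settings. In the pericentromeres the 10 became 2 with Bonferroni and 6 with the 2-fold minimum. Benjamini-Hochberg adjustment over all tested rows kept 31 of the 35 calls. Limiting the rows to those with all 50-base words unique, a setting chosen after seeing the data, left 18 calls, 13 on the arms and 5 in the pericentromeres. That setting also kept only 231 of the 412 unnamed rows (56.1%), called or not. Leaving out rows under 100 bases, also chosen later, left 35. The median change of -0.026 became -0.018 with a minimum mean of 1 FPKM. It became -0.042 when centred on the median of all tested rows of 1 FPKM or more. Of the 43 rows named by rule, 3 lost their call under Benjamini-Hochberg adjustment and 17 under Bonferroni. No paired analysis was possible because the table holds 1 pooled value per group, and for the same reason no replicate could be left out. Levels of rows whose 50-base words recur, and counting error at low FPKM, are limited by mapping and by a depth that is unknown.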

Other observations

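Rows outside the comparison are given as values. Cuffdiff's test failed for 2 rows, with silex levels of 60.7 and 11.004 FPKM and epic2 levels of 55.8 and 10.3 FPKM, and 8 rows were untested for lack of data. In 4 rows a group was listed at 0. Of 3 rows on the same interval over AT2G12490 and MIR8168, 1 had 2.51 FPKM in silex and was listed at 0 in epic2, while the others had 1.88 and 1.96 FPKM and 1.11 and 0.937 FPKM. The row over AT5G00650 had 1.90 FPKM in silex and was listed at 0 in epic2, and a row over no feature on chromosome 1 had 1.08 FPKM and 0. None of these 3 rows listed at 0 in epic2 was called. The longest row, 13474 bases over AT3G13240 and its neighbours on chromosome 3, had 0.189 and 0.649 FPKM. In 8 intervals, 18 rows shared both ends with another unnamed row, and strand is not given in the table. One such pair, of 13072 bases each on chromosome 4 over MIR841b and other features, had 3.74 and 2.45 FPKM in one row and 0.492 and 0.331 FPKM in the other.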
